A study of Mus musculus with 8 samples.

Results

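The genes described here were 35 markers of blood-derived and resident immune cells, measured in whole mouse liver: 9 of neutrophils, 14 of lymphocytes and 12 of macrophages. They were chosen as symbols that mark these cells, with earlier results of these data known. Each was read through its main probe, the probe with the highest mean signal. Of the 35, 32 had a named probe on the array (9 neutrophil, 13 lymphocyte and 10 macrophage genes) out of 16593 genes with a probe, and 24 of the 32 passed a filter on dim probes and were tested among 9766 genes (8 in each class). Lck, Cd68 and Csf1r had no named probe here, so no signal of theirs was analysed. The other 8 genes with a probe were too dim to be tested and are given by their range. The classes take their names from the marker lists, since the liver was not sorted into cells.

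Liver RNA came from male mice aged 10 to 12 weeks, labelled Fxr-/- or Fxr+/+, and was hybridised to Illumina bead arrays. The mice had been gavaged with GW4064 at 30 mg/kg or with vehicle, 2 times a day for 7 days, and each array held RNA pooled from 3 to 4 animals. FXR, encoded by Nr1h4, is the nuclear receptor for bile acids, and GW4064 is its synthetic agonist. The groups used were Fxr-/- GW4064 (2 arrays), Fxr-/- vehicle (1 array), Fxr+/+ GW4064 (2 arrays) and Fxr+/+ vehicle (2 arrays). The labels name no strain, do not describe how the Fxr allele was made, and give no account of how pools were handled.

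Neutrophils are short-lived phagocytes made in the bone marrow, which build their granule proteins in a fixed sequence as they mature and then circulate. T cells carry the antigen receptor together with the CD3 chains, and B cells carry theirs with CD79. Kupffer cells are the resident macrophages of the liver sinusoids, which clear particles from portal blood, take up complement-coated material and present antigen. In liver RNA such cells are a minority beside hepatocytes, and in these bulk samples fewer cells of a type and less RNA per cell cannot be told apart.

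A few facts of the whole set bear on what follows. Of 8 deposited columns, 7 held signals. The remaining column, replicate 2 of Fxr-/- vehicle, consisted of whole numbers from 14 to 139 whose Spearman correlation with any other array was at most 0.0559, and it was not used. The 7 columns were already background-subtracted, with 31.5% to 31.6% of their values below 0, and a signal under 39.5, the size of the lowest value, is treated here as within the background. Hepatocyte markers were high on every array, with a mean log2 value of 12.65 to 12.77 in Fxr-/- and of 13.15 to 13.18 in Fxr+/+ arrays. Nr1h4, the targeted gene, was not lost in the libraries labelled Fxr-/-: its signals were 2048, 1852 and 3272 there, against 3328, 3483, 3959 and 4411 in Fxr+/+ arrays. Whether its probe lies inside the deleted part is not known here, so the genotype is given as labelled and every direction between genotypes rests on those labels.

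S100a8, S100a9 and Ltf had the largest differences of all members between the genotype labels under GW4064, and Cd3d kept its call in that comparison under every setting tried. Under GW4064 Prtn3 was the only neutrophil gene that passed as higher in Fxr-/-, and Elane the only one tested that did not pass. The promoters of these 6 genes are shown. Each is the stretch from 250 bases before to 50 after the gene's start, taken from RefSeq on GRCm38.p6 and read 5′ to 3′ on the strand of the gene. S100a8 lies at chr3:90668821-90669120 (plus strand), S100a9 at chr3:90695672-90695971 (minus), Ltf at chr9:111019042-111019341 (plus), Elane at chr10:79886062-79886361 (plus), Prtn3 at chr10:79879417-79879716 (plus) and Cd3d at chr9:44981536-44981835 (plus). Capitals mark matches on either strand to GAGGAA, the core that the blood cell factor PU.1 is known to bind, and to TTGCNNAA, the form bound by the C/EBP factors of granulocytes.
S100a8: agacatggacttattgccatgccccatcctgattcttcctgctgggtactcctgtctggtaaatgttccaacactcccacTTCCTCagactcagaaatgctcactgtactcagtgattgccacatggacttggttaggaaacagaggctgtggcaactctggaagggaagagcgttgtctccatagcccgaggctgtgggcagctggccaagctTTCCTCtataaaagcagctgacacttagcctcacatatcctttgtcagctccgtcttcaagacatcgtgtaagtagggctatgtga
S100a9: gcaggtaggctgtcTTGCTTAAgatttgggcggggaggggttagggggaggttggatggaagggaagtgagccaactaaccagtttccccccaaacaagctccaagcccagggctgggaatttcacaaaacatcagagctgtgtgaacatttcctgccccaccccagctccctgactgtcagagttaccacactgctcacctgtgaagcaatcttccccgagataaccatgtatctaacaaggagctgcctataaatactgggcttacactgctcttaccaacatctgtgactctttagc
Ltf: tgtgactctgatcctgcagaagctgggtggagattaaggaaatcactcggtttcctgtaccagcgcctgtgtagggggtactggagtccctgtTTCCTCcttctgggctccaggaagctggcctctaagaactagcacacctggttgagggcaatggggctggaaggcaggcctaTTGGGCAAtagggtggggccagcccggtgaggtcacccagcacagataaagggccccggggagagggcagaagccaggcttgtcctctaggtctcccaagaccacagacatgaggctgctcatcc
Elane: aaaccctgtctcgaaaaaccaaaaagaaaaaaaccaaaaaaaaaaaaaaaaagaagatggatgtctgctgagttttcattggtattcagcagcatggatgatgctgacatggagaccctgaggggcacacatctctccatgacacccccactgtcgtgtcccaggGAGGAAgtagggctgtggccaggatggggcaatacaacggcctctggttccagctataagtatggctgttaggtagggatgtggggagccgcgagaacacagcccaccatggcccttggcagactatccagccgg
Prtn3: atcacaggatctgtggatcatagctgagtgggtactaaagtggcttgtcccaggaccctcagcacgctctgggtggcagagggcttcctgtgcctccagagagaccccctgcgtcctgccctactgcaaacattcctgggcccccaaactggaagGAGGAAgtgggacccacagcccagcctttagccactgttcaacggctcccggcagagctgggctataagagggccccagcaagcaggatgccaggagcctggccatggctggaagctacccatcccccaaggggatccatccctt
Cd3d: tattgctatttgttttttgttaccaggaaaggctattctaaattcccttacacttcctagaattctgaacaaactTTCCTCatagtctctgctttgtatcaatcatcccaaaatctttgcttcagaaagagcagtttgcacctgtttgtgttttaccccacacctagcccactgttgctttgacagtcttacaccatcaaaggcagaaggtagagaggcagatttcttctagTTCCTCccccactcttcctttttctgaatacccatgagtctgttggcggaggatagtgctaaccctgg
GAGGAA occurred in 28.3% and TTGCNNAA in 10.8% of 32851 promoters of the same length. Of the members with a promoter in the table, 6 of 9 neutrophil, 6 of 9 lymphocyte and 6 of 8 macrophage genes held GAGGAA. TTGCNNAA was found in 3 neutrophil genes, 1 lymphocyte gene and 1 macrophage gene. These counts include Cd68 and, by the first of its promoters, Lck, neither of which had a named probe. Members on 1 chromosome were skipped here, whereas the promoters of that chromosome stayed among the 32851. A match describes letters only and is neither a binding site nor a cause. S100a9 had the TTGCNNAA match without GAGGAA, and Ltf held both. Prtn3 and Elane, close together on chromosome 10, had 1 GAGGAA match each. Nr1h4 also lies on chromosome 10.

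The question of the first comparison was whether immune cell transcripts differed between the genotype labels in mice given GW4064. They did: 13 of the 24 members tested were lower in Fxr-/- than in Fxr+/+ livers and 1 was higher. The neutrophil genes showed the largest differences, with S100a8 and S100a9 each over 12-fold lower, followed by the CD3 chains and Ccl5, while 2 of 8 macrophage genes passed, a count that was 5 with an intensity trend in the fit, 4 with an offset of 100 or with the replicate number as a block, and 0 with an offset of 1 or without the filter. The other classes depended on the filter too: without it 0 of 9 neutrophil and 1 of 13 lymphocyte genes passed. Of all genes tested, 14.6% passed in either direction, 9.14% lower and 5.45% higher, against 58.3% of these members in either direction and 54.2% lower. Since the members were chosen with earlier results of these data known, these shares are description only. Mpo, Ngp and Cd2 passed the filter on dim probes only through their Fxr+/+ arrays and so had to differ. Of the other 21 members 11 were called. Ltf, among these 11, had 1 Fxr-/- array above the filter, short of the 2 required. It therefore also needed its high Fxr+/+ arrays to be tested. The class medians of the log2 difference were -2.20 for neutrophil, -1.48 for lymphocyte and -0.88 for macrophage genes, and 0.08 over all genes. Here and below a gene passed when its limma p, adjusted over the 9766 genes, was under 0.05, and log2 values are of the signal plus 16. Folds are ratios of geometric mean signals, with signals of the dimmer group set to 39.5 where they were under it.

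S100a8 and S100a9 encode the 2 chains of calprotectin, the calcium-binding protein that fills the neutrophil cytosol and is also made by monocytes. S100a8 had signals of 165 and 132 in Fxr-/- GW4064 arrays and 562 in the Fxr-/- vehicle array, against 1887 and 1835 in Fxr+/+ GW4064 and 1822 and 597 in Fxr+/+ vehicle arrays. The Fxr-/- GW4064 arrays were the lowest of the 7, and the 2 vehicle pools of Fxr+/+ differed 3.05-fold between themselves, with the lower one close to the Fxr-/- vehicle array. Under GW4064 S100a8 averaged 149 ± 23.8 in Fxr-/- and 1861 ± 37.0 in Fxr+/+ livers (SD, n = 2 each), 12.6-fold lower (log2 difference -3.52, SE 0.451, limma adjusted p = 0.00260). S100a9 had signals of 79.8 and 58.7 in Fxr-/- GW4064 arrays and 260 in the Fxr-/- vehicle array, against 864 and 888 in Fxr+/+ GW4064 and 911 and 473 in Fxr+/+ vehicle arrays. Its Fxr-/- arrays were again the lowest, and under GW4064 it was 12.8-fold lower in Fxr-/- livers (log2 difference -3.40, SE 0.310, limma adjusted p = 0.000682).

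The secondary granule genes, expressed late in neutrophil maturation, also fell. Ltf, which encodes the iron-binding protein lactoferrin, had signals of 9.2 and 12.6 in Fxr-/- GW4064 arrays and 78.5 in the Fxr-/- vehicle array, against 319 and 437 in Fxr+/+ GW4064 and 395 and 194 in Fxr+/+ vehicle arrays. With GW4064 it lay within the background in Fxr-/- livers and was at least 9.45-fold lower (log2 difference -3.86, SE 0.329, limma adjusted p = 0.000535). A second Ltf probe stayed within the background (-14.9 to 7.4) and did not enter the tests. Camp, the cathelicidin antimicrobial peptide, had signals of 39.1 and 31.8 in Fxr-/- GW4064 arrays and 89.7 in the Fxr-/- vehicle array, against 150 and 189 in Fxr+/+ GW4064 and 177 and 90.4 in Fxr+/+ vehicle arrays. The Fxr-/- vehicle array nearly equalled the lower Fxr+/+ vehicle pool, and under GW4064 Camp was at least 4.26-fold lower (log2 difference -1.85, SE 0.298, limma adjusted p = 0.00711; lost without replicate 2 of either GW4064 group, adjusted p = 0.0561 without that of Fxr-/- and 0.0601 without that of Fxr+/+). Ngp, the neutrophilic granule protein, had signals of 16.9 and 0 in Fxr-/- GW4064 arrays and 18.1 in the Fxr-/- vehicle array, against 104 and 97.3 in Fxr+/+ GW4064 and 139 and 42.7 in Fxr+/+ vehicle arrays. All 3 Fxr-/- arrays were within the background, and under GW4064 Ngp was at least 2.54-fold lower (log2 difference -2.34, SE 0.484, limma adjusted p = 0.0181). The Ngp call was lost without Fxr-/- GW4064 replicate 2 (adjusted p = 0.116), Fxr+/+ GW4064 replicate 1 (0.0924) or Fxr+/+ GW4064 replicate 2 (0.0886).

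The primary granule genes, transcribed in bone marrow promyelocytes, did not move as 1 group. Mpo, myeloperoxidase, had signals of -21.4 and -18.3 in Fxr-/- GW4064 arrays and -8.5 in the Fxr-/- vehicle array, against 52.9 and 47.8 in Fxr+/+ GW4064 and 43.9 and 24.6 in Fxr+/+ vehicle arrays. Every Fxr-/- array read below 0 and Fxr+/+ arrays lay near the limit of the background, and under GW4064 Mpo was at least 1.27-fold lower (log2 difference -2.05, SE 0.230, limma adjusted p = 0.00158). Its other 2 probes read between -20.3 and 13.4 and were not tested. Elane, neutrophil elastase, had signals of 18.4 and 24.4 in Fxr-/- GW4064 arrays and -0.2 in the Fxr-/- vehicle array, against 40.7 and 51.7 in Fxr+/+ GW4064 and 35.1 and 22.4 in Fxr+/+ vehicle arrays, and it did not pass under GW4064 (log2 difference -0.73, SE 0.225, limma adjusted p = 0.0701). Ctsg, cathepsin G, read between -13.0 and 9.5 on all arrays.

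Prtn3 went the other way. It encodes proteinase 3, the serine protease of the same granules. Prtn3 had signals of 242 and 214 in Fxr-/- GW4064 arrays and 164 in the Fxr-/- vehicle array, against 48.0 and 98.3 in Fxr+/+ GW4064 and 68.3 and 30.4 in Fxr+/+ vehicle arrays. All 3 Fxr-/- arrays lay above all 4 Fxr+/+ arrays, and under GW4064 Prtn3 was 3.32-fold higher (log2 difference 1.51, SE 0.358, limma adjusted p = 0.0298). It was the only member past the threshold in that direction. The call was lost when Fxr+/+ GW4064 replicate 1 (adjusted p = 0.168), Fxr-/- GW4064 replicate 1 (0.112) or Fxr-/- GW4064 replicate 2 (0.118) was left out.

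**Figure D1:**
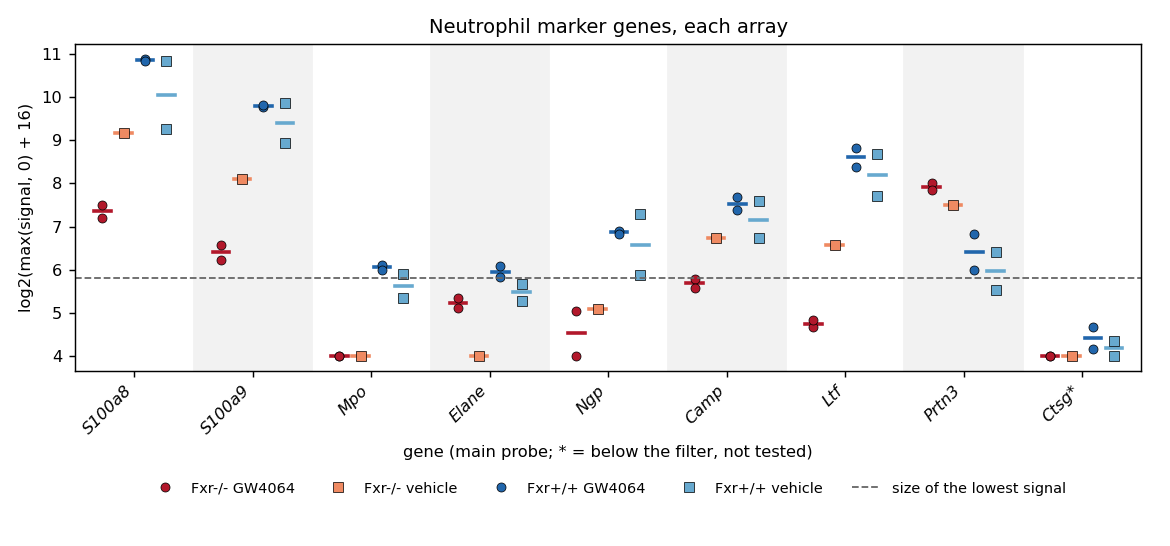
Log2(signal + 16), with signals below 0 set to 0, of the 9 neutrophil genes on each of the 7 arrays; points are arrays, short bars are group means, and the dashed line marks a signal of 39.5. Red and orange Fxr-/- points lie below the blue Fxr+/+ points for S100a8, S100a9, Mpo, Ngp, Camp and Ltf and above them for Prtn3, and 1 of the 2 Fxr+/+ vehicle points is low in S100a8 and Ngp.

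Among lymphocyte genes the T cell receptor complex was read most clearly. Cd3d, the delta chain, had signals of 55.8 and 73.0 in Fxr-/- GW4064 arrays and 86.6 in the Fxr-/- vehicle array, against 242 and 314 in Fxr+/+ GW4064 and 188 and 190 in Fxr+/+ vehicle arrays. The Fxr-/- and Fxr+/+ arrays were far apart and the Fxr+/+ vehicle pools were alike, and under GW4064 Cd3d was 4.33-fold lower (log2 difference -1.87, SE 0.215, limma adjusted p = 0.00170). Cd3g, the gamma chain, had signals of 50.5 and 38.0 in Fxr-/- GW4064 arrays and 80.1 in the Fxr-/- vehicle array, against 160 and 218 in Fxr+/+ GW4064 and 158 and 107 in Fxr+/+ vehicle arrays. Under GW4064 it was at least 4.18-fold lower, with 1 of the 2 Fxr-/- arrays under the background limit and no overlap of the arrays (log2 difference -1.76, SE 0.255, limma adjusted p = 0.00447). Cd3e, the epsilon chain, had signals of 52.4 and 33.6 in Fxr-/- GW4064 arrays and 37.5 in the Fxr-/- vehicle array, against 136 and 157 in Fxr+/+ GW4064 and 111 and 83.7 in Fxr+/+ vehicle arrays. Its Fxr-/- signals stood at the edge of the background, and under GW4064 it was at least 3.22-fold lower, again with 1 of 2 Fxr-/- arrays under the limit (log2 difference -1.48, SE 0.236, limma adjusted p = 0.00679).

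Cd2, an adhesion receptor of T and natural killer cells, had signals of -2.6 and 10.3 in Fxr-/- GW4064 arrays and 1.4 in the Fxr-/- vehicle array, against 28.3 and 57.0 in Fxr+/+ GW4064 and 33.6 and 34.4 in Fxr+/+ vehicle arrays. Only 1 array rose above the background, so the difference under GW4064 was at least 1.02-fold (log2 difference -1.47, SE 0.316, limma adjusted p = 0.0210). The call was lost without Fxr-/- GW4064 replicate 1 (adjusted p = 0.0887) or Fxr+/+ GW4064 replicate 2 (0.134). Ccl5, a chemokine stored by cytotoxic T and natural killer cells and made by other cells as well, had signals of 226 and 176 in Fxr-/- GW4064 arrays and 273 in the Fxr-/- vehicle array, against 892 and 1026 in Fxr+/+ GW4064 and 830 and 526 in Fxr+/+ vehicle arrays. It had the largest difference of its class, 4.80-fold lower under GW4064 (log2 difference -2.18, SE 0.262, limma adjusted p = 0.00201). Nkg7, a protein of cytotoxic granules, had signals of 53.8 and 59.5 in Fxr-/- GW4064 arrays and 63.7 in the Fxr-/- vehicle array, against 98.7 and 128 in Fxr+/+ GW4064 and 108 and 51.2 in Fxr+/+ vehicle arrays, and it did not pass (log2 difference under GW4064 -0.82, limma adjusted p = 0.116).

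No B cell gene passed. Cd79b, a signalling chain of the B cell receptor, had signals of 40.1 and 52.9 in Fxr-/- GW4064 arrays and 64.4 in the Fxr-/- vehicle array, against 54.5 and 70.9 in Fxr+/+ GW4064 and 65.8 and 63.2 in Fxr+/+ vehicle arrays. Under GW4064 both Fxr-/- arrays were lower without passing (log2 difference -0.33, SE 0.208, limma adjusted p = 0.337), and the vehicle arrays overlapped. Its other probe read between -3.1 and 14.5. Ms4a1, the CD20 antigen, was within the background on all arrays (18.8 to 34.4). The coreceptors Cd4 (-20.8 to 5.0) and Cd8a (-23.0 to -2.8), the B cell receptor chain Cd79a (-13.6 to 5.1) and the granzymes Gzma (-0.6 to 10.1) and Gzmb (-25.4 to -11.6) read within the background throughout and were not tested. The lymphocyte calls therefore rest on T cell receptor chains, Cd2 and Ccl5, and with Cd4 and Cd8a in the background the T cell subset was not read.

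**Figure D2:**
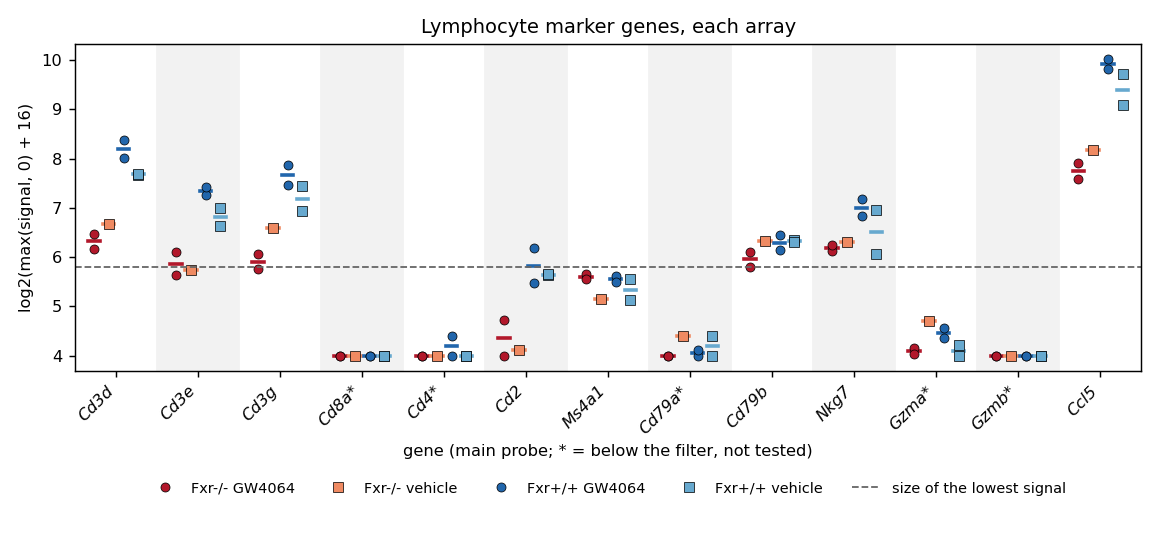
Log2(signal + 16) of the 13 lymphocyte genes with a probe on each of the 7 arrays, drawn as for the neutrophil genes. Fxr-/- points lie below Fxr+/+ points for Cd3d, Cd3e, Cd3g, Cd2 and Ccl5, while Cd8a, Cd4, Cd79a, Gzma and Gzmb stay under the dashed line at a signal of 39.5.

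Clec4f, a lectin receptor restricted to Kupffer cells in mice, had signals of 270 and 406 in Fxr-/- GW4064 arrays and 366 in the Fxr-/- vehicle array, against 588 and 626 in Fxr+/+ GW4064 and 618 and 704 in Fxr+/+ vehicle arrays. The genotype labels did not overlap, yet the difference under GW4064 missed the threshold (1.83-fold lower, log2 difference -0.84, SE 0.234, limma adjusted p = 0.0520) and passed with the replicate number as a block (adjusted p = 0.0250). A second Clec4f probe read between -8.3 and 40.3 and was too dim to be tested. Vsig4, the complement receptor of Kupffer cells, had signals of 629 and 374 in Fxr-/- GW4064 arrays and 735 in the Fxr-/- vehicle array, against 687 and 653 in Fxr+/+ GW4064 and 862 and 439 in Fxr+/+ vehicle arrays. Marco, a scavenger receptor, had signals of 46.8 and 61.0 in Fxr-/- GW4064 arrays and 79.6 in the Fxr-/- vehicle array, against 71.4 and 90.5 in Fxr+/+ GW4064 and 56.5 and 45.6 in Fxr+/+ vehicle arrays. Over the 7 arrays the labels overlapped for both Vsig4 and Marco. Cd5l (-34.0 to -20.4) and Timd4 (3.1 to 23.4), a secreted scavenger protein and a phosphatidylserine receptor of resident macrophages, were within the background on every array.

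Of the 3 chains of complement C1q, a starter of the classical pathway made by macrophages, C1qa passed. C1qa had signals of 261 and 332 in Fxr-/- GW4064 arrays and 384 in the Fxr-/- vehicle array, against 482 and 673 in Fxr+/+ GW4064 and 555 and 450 in Fxr+/+ vehicle arrays. Under GW4064 it was 1.93-fold lower (log2 difference -0.91, SE 0.242, limma adjusted p = 0.0443), a call lost in each of the 6 fits with 1 array fewer (highest adjusted p = 0.262). C1qb had signals of 1372 and 950 in Fxr-/- GW4064 arrays and 1548 in the Fxr-/- vehicle array, against 2121 and 2497 in Fxr+/+ GW4064 and 2579 and 1354 in Fxr+/+ vehicle arrays. C1qc had signals of 1186 and 736 in Fxr-/- GW4064 arrays and 1137 in the Fxr-/- vehicle array, against 1881 and 2163 in Fxr+/+ GW4064 and 2048 and 1044 in Fxr+/+ vehicle arrays. C1qb and C1qc did not pass under GW4064 (limma adjusted p = 0.0870 and 0.0819; C1qc passed with the block, 0.0419), and for both the lower Fxr+/+ vehicle pool lay among the Fxr-/- arrays.

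Cd74, the invariant chain of MHC class II and so a marker of antigen-presenting cells in general, had signals of 1084 and 788 in Fxr-/- GW4064 arrays and 1237 in the Fxr-/- vehicle array, against 2003 and 4460 in Fxr+/+ GW4064 and 2686 and 1922 in Fxr+/+ vehicle arrays. All 3 Fxr-/- arrays were lower than all Fxr+/+ arrays, and under GW4064 Cd74 was 3.23-fold lower (log2 difference -1.68, SE 0.384, limma adjusted p = 0.0263). A second probe read between 713 and 4294 with the Fxr-/- arrays again lowest. The Cd74 call was lost without Fxr+/+ GW4064 replicate 2 (adjusted p = 0.126), which held the highest signal, and without Fxr-/- GW4064 replicate 1 (0.0606) or replicate 2 (0.152). Cd14, the lipopolysaccharide coreceptor of monocytes and macrophages, had signals of 225 and 151 in Fxr-/- GW4064 arrays and 211 in the Fxr-/- vehicle array, against 212 and 206 in Fxr+/+ GW4064 and 252 and 118 in Fxr+/+ vehicle arrays, which overlapped (log2 difference under GW4064 -0.17, SE 0.341, limma adjusted p = 0.792).

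**Figure D3:**
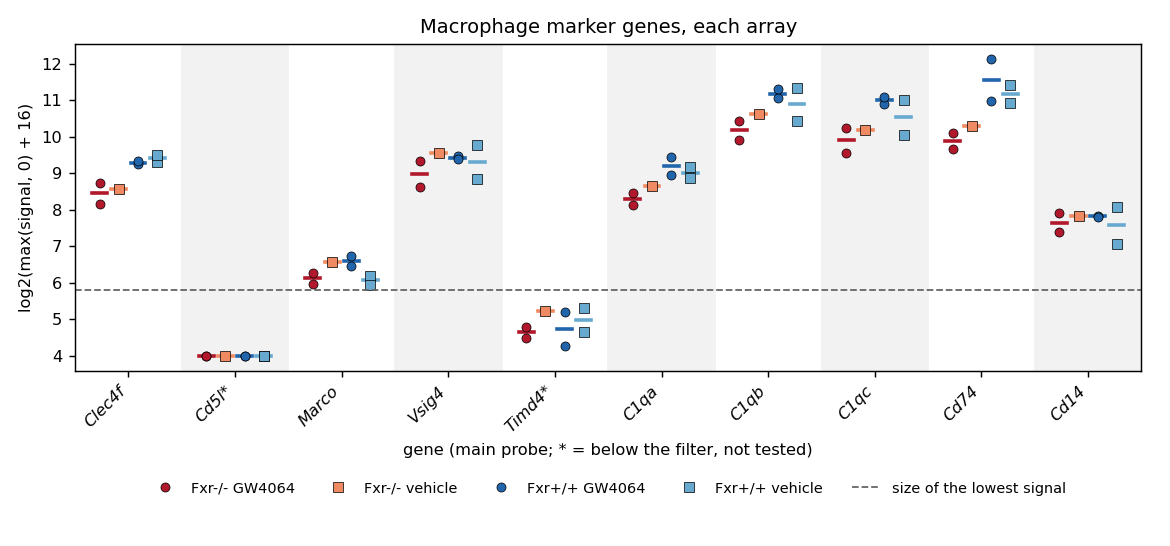
Log2(signal + 16) of the 10 macrophage genes with a probe on each of the 7 arrays, drawn as for the neutrophil genes. Fxr-/- points lie below Fxr+/+ points for Clec4f, C1qa and Cd74, and the points of Vsig4, Marco, C1qb, C1qc and Cd14 overlap.

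Leaving out 1 array at a time changed the number of members past the threshold under GW4064 to between 8 and 16. The lowest count came without Fxr+/+ GW4064 replicate 2, where Cd3e (adjusted p = 0.0602), Camp, Cd2 and Ngp were lost besides C1qa and Cd74. S100a8, S100a9, Ltf, Mpo, Cd3d, Cd3g and Ccl5 stayed past the threshold in all 6 of these fits. Of these, Mpo had passed the filter on dim probes only through its Fxr+/+ arrays.

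Under vehicle the same comparison gave few calls. Of the 24 members, Mpo and Elane passed, both lower in Fxr-/- livers, where 4.98% of all genes passed lower, 1.85% higher and 6.83% in either direction, against 8.33% of the members lower. Mpo, like Ngp and Cd2, passed the filter on dim probes only through its Fxr+/+ arrays, and of the other 21 members 1 was called. That 1, Elane, had 1 Fxr-/- array above the filter, short of the 2 required. Both calls therefore depended on high Fxr+/+ arrays to be tested. The Fxr-/- vehicle array read -8.5 for Mpo and the Fxr+/+ vehicle mean was 34.3 ± 13.7 (SD, n = 2), under the background limit, so no fold is given (log2 difference -1.62, SE 0.282, limma adjusted p = 0.0158). Elane read -0.2 there, against 28.8 ± 8.98 (SD, n = 2) in Fxr+/+ vehicle arrays, likewise without a fold (log2 difference -1.47, SE 0.275, limma adjusted p = 0.0210). Ltf (log2 difference -1.64, SE 0.403, limma adjusted p = 0.0556), Cd2 (-1.52, SE 0.387, 0.0606), Ccl5 (-1.23, SE 0.321, 0.0653) and Cd3d (-1.0, SE 0.263, 0.0665) fell short, as did S100a8 (-0.88, SE 0.552, 0.374) and Clec4f (-0.82, SE 0.287, 0.131). The class medians were -1.38 for neutrophil, -0.80 for lymphocyte and -0.31 for macrophage genes.

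This comparison turned on single arrays, since the Fxr-/- vehicle group held 1 array, whose spread was taken to be like that of the other groups. Without Fxr+/+ vehicle replicate 2 the number of members past the threshold was 6, of which 5 were neutrophil genes, and without Fxr+/+ vehicle replicate 1 it was 1. The medians without replicate 2 were -1.71 for neutrophil, -0.92 for lymphocyte and -0.62 for macrophage genes. Without replicate 1 they were -0.81, -0.62 and, turning positive, 0.16. Fitted with the replicate number as a block, 7 members passed (S100a9, Mpo, Elane, Ngp, Cd3e, Cd2 and Ccl5). Of these, Mpo, Ngp and Cd2 had passed the filter on dim probes only through their Fxr+/+ arrays. Elane, with 1 Fxr-/- array above the filter, had also needed its Fxr+/+ arrays to pass it.

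Over both treatments, all 3 Fxr-/- arrays lay below all 4 Fxr+/+ arrays for 14 of the 24 members (58.3%), against 16% of all genes tested. Mpo, Ngp and Cd2 are among them, and without them it was 11 of 21. Those 11 include Ltf, which also needed its Fxr+/+ arrays to pass the filter on dim probes. These were 6 of 8 neutrophil, 5 of 8 lymphocyte and 3 of 8 macrophage genes. Prtn3 alone lay above in every Fxr-/- array, a pattern of 19.2% of all genes, and 9 members overlapped.

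**Figure D4:**
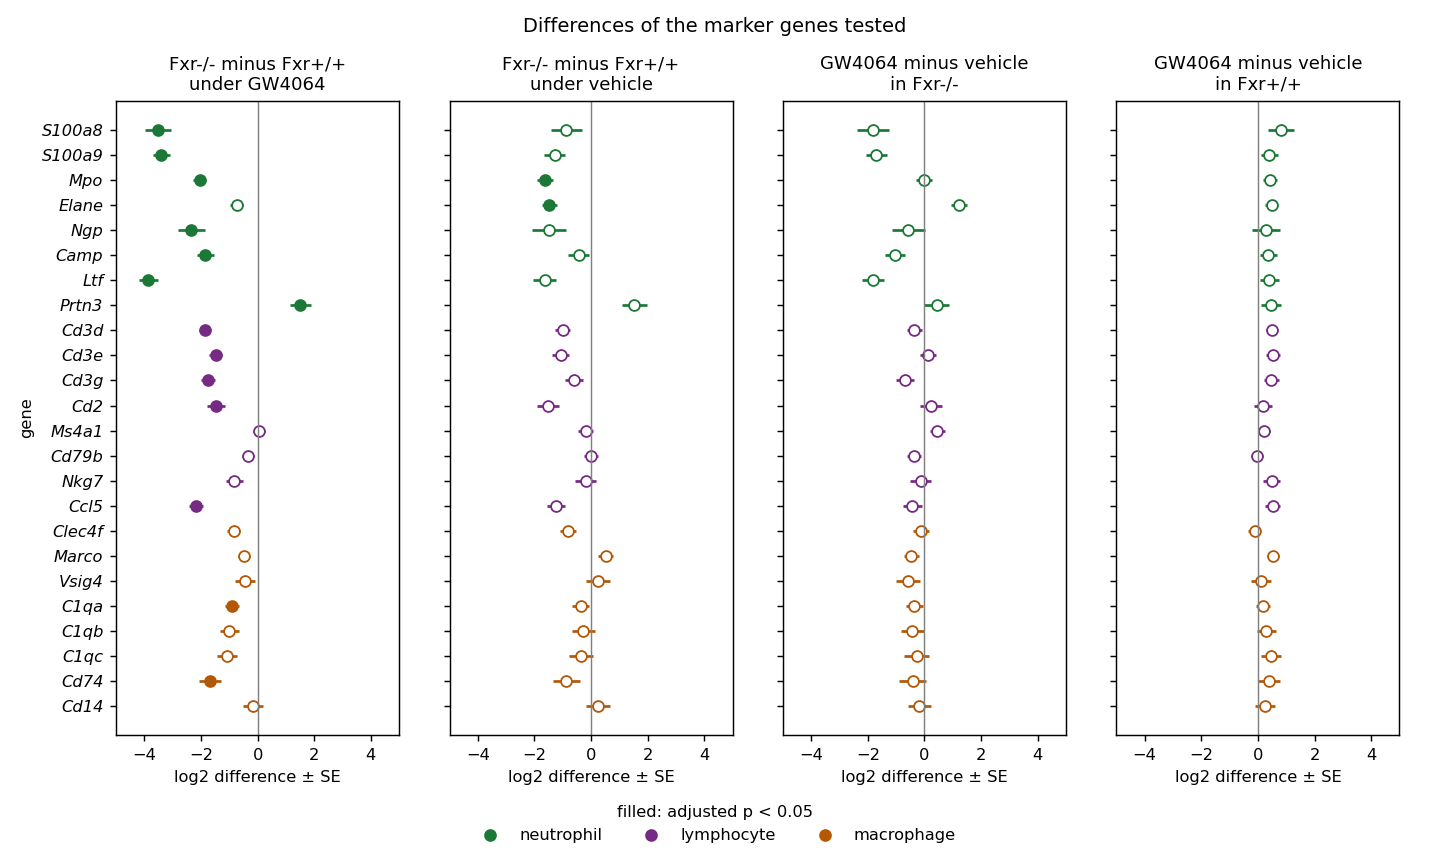
Log2 difference ± SE of the 24 members tested in 4 comparisons, with neutrophil genes in green, lymphocyte genes in purple and macrophage genes in brown, and filled points for an adjusted p under 0.05. Filled points number 14 for Fxr-/- against Fxr+/+ under GW4064, 2 under vehicle and 0 for GW4064 against vehicle in either genotype.

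The next question was whether GW4064 itself changed these genes. In livers labelled Fxr-/- Ltf, Camp and the calprotectin genes had lower signals with GW4064, without passing. No member passed in limma, 5 of the 24 and 949 of all genes had an unadjusted p under 0.05, and 0.0717% of all genes passed in either direction (0.0512% higher and 0.0205% lower). The smallest adjusted p was 0.194, for Ltf (log2 difference -1.82, SE 0.403), followed by S100a9 (-1.70, SE 0.380, limma adjusted p = 0.197) and Elane (1.22, SE 0.275, limma adjusted p = 0.200), whose signals all lay within the background. S100a8 averaged 149 ± 23.8 (SD, n = 2) with GW4064 against 562 with vehicle (log2 difference -1.82, SE 0.552, limma adjusted p = 0.327). In lymphocyte genes the smallest was Cd3g (-0.68, SE 0.312, limma adjusted p = 0.550) and in macrophage genes Marco (-0.46, SE 0.263, limma adjusted p = 0.673). The class medians were -0.81 for neutrophil, -0.25 for lymphocyte and -0.39 for macrophage genes. All of this rests on 1 vehicle array.

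In Fxr+/+ livers 22 of the 24 members had values above 0 with GW4064 and none passed in limma. At an unadjusted p under 0.05 there were 2 of the 24 and 493 of all genes, and 0.0205% of all genes passed (0.0102% in each direction). Marco had signals of 81.0 ± 13.5 with GW4064 and 51.1 ± 7.71 with vehicle (SD, n = 2 each; log2 difference 0.53, SE 0.215, limma adjusted p = 0.982). Cd3d averaged 278 ± 51.0 with GW4064 and 189 ± 1.06 with vehicle (SD, n = 2 each; log2 difference 0.51, SE 0.215, limma adjusted p = 0.985), and Elane 46.2 ± 7.78 and 28.8 ± 8.98 (SD, n = 2 each; 0.48, SE 0.225, limma adjusted p = 0.991). The class medians were 0.42 for neutrophil, 0.49 for lymphocyte and 0.27 for macrophage genes.

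These medians depended on 1 vehicle pool. Fxr+/+ vehicle replicate 1 was higher than replicate 2 in 8 of 8 neutrophil genes, with a median log2 gap of 0.89, in 6 of 8 lymphocyte genes (0.39) and in 7 of 8 macrophage genes (0.70), while the median absolute gap of all genes was 0.26. Ngp differed 3.26-fold and S100a8 3.05-fold between these pools, while the ratio of replicate 1 to replicate 2 was 0.992 for Cd3d and 0.878 for Clec4f. Without replicate 2 the neutrophil and macrophage medians of the GW4064 effect came to -0.02 each and the lymphocyte median to 0.20. Without replicate 1 they were 0.88 for neutrophil, 0.60 for lymphocyte and 0.64 for macrophage genes.

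Whether GW4064 acted unlike in the 2 genotypes was tested as the difference of the effects, Fxr-/- minus Fxr+/+. No member passed in limma and 0% of all genes did, with 7 of the 24 members and 600 of all genes at an unadjusted p under 0.05. S100a9 (log2 difference of effects -2.11, SE 0.491) and Ltf (-2.22, SE 0.520) had the smallest adjusted p, 0.545 for both. The 4 comparisons share arrays, so that low signals in Fxr-/- GW4064 arrays enter both the genotype difference under GW4064 and the treatment difference in Fxr-/-.

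Other genes of the same cells, listed beside the members, were lower in Fxr-/- than in Fxr+/+ livers under GW4064 wherever they passed. Over all genes tested, 9.14% passed lower under GW4064 and 4.98% under vehicle. For these lists and those below, it was not examined which genes passed the filter on dim probes only through Fxr+/+ arrays. Such genes had to differ. Of other neutrophil genes 5 of 11 passed, among them Chil3 (chitinase-like 3, at least 3.38-fold lower, limma adjusted p = 0.00333) and Retnlg (resistin-like gamma, at least 1.64-fold lower, limma adjusted p = 0.00867). Of other T, B and natural killer cell genes 8 of 16 passed, led by Zap70, the kinase of the T cell receptor (at least 7.35-fold lower, limma adjusted p = 0.000610), and Thy1 (3.88-fold lower, limma adjusted p = 0.00158). Of other macrophage and monocyte genes 7 of 24 passed, with Gpnmb, a glycoprotein of lipid-laden macrophages, at least 8.23-fold lower (limma adjusted p = 0.00182). MHC class II genes passed in 5 of 6 cases, with a median log2 difference of -1.57.

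Genes that recruit these cells or answer to interferon were lower too. Chemokines and adhesion molecules passed in 8 of 13 cases, all lower, and Ccl4, which attracts monocytes and T cells, was 11.6-fold lower (limma adjusted p = 0.000127). Interferon-induced genes passed in 6 of 8 cases, with Ifit3 3.98-fold lower (limma adjusted p = 0.000737). Under vehicle the counts were 0 of 11 other neutrophil genes, 2 of 16 lymphocyte genes (Zap70 and Lat), 2 of 24 macrophage genes (Gpnmb and Trem2), 1 of 6 MHC class II genes (Ciita), 8 of 13 chemokines and adhesion molecules and 4 of 8 interferon-induced genes, again all lower in Fxr-/-. GW4064 against vehicle gave 0 calls in each of these lists in limma, in both genotypes.

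Markers of other cells were read beside these. Red blood cell and erythroid genes moved with the genotype label: 2 of 4 passed under GW4064, and Alas2, the heme synthesis enzyme of erythroid cells, was 5.60-fold lower (limma adjusted p = 0.00234). By summed signal, the 5 erythroid genes with a probe overlapped between the labels (18307 in Fxr-/- GW4064 replicate 2, 16847 in Fxr+/+ vehicle replicate 1). The mean log2 value of the 4 tested, relative to the mean of the 7 arrays, was -1.27, -0.65 and -1.06 in Fxr-/- arrays, against 0.27, 1.19, 0.69 and 0.85 in Fxr+/+ arrays. By the same mean the neutrophil genes stood at -1.02, -1.23 and -0.46 in Fxr-/- arrays, against 0.80, 1.01, 0.92 and -0.02 in Fxr+/+ arrays. Fxr+/+ vehicle replicate 2, the lowest Fxr+/+ array in neutrophil genes (-0.02), stood at 0.85 in erythroid genes. The part of blood left in the tissue in these differences was not tested. Under GW4064 hepatocyte genes passed in 1 of 8 cases (Serpina1a, 3.16-fold lower), sinusoidal endothelial genes in 1 of 9 (Cdh5), stellate cell and matrix genes in 0 of 9, platelet genes in 0 of 4, mast cell genes in 0 of 2, pancreatic acinar genes in 0 of 3, and of 2 bile duct genes Sox9 was 2.38-fold higher. Under vehicle 2 of 8 hepatocyte genes (Hnf4a and Serpina1a), 1 of 9 stellate cell and matrix genes (Col3a1) and 1 of 4 erythroid genes (Alas2) were lower in Fxr-/- livers, and 0 passed in the endothelial, bile duct, platelet, mast cell and acinar lists.

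**Figure D5:**
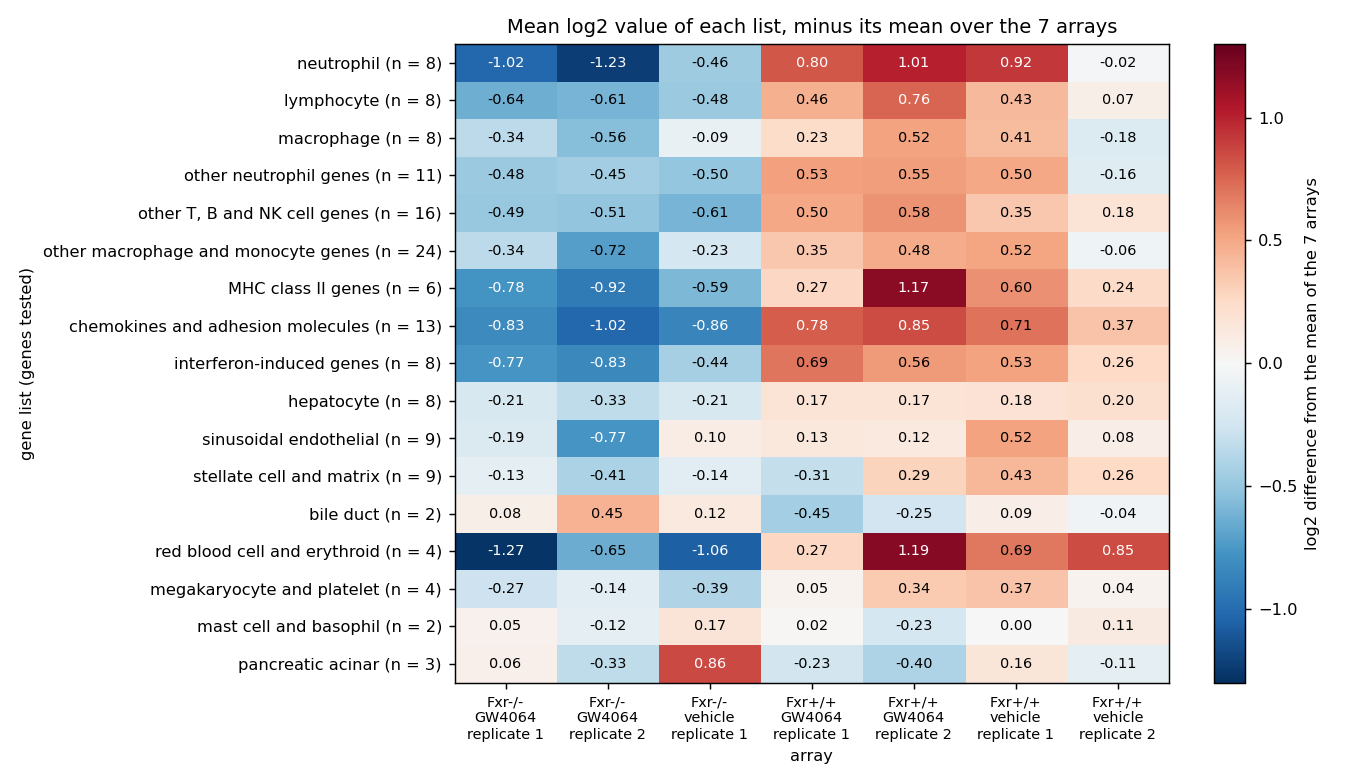
Mean log2 value of the genes tested in each list on each of the 7 arrays, minus the list's mean over those arrays; blue is lower, red is higher, and n is the number of genes. The 3 member classes at the top are blue in Fxr-/- arrays, and Fxr+/+ vehicle replicate 2 is pale for them (-0.02, 0.07 and -0.18). By this mean the neutrophil, lymphocyte and erythroid lists separate the genotype labels on all 7 arrays, as do several other lists, the hepatocyte list among them. The macrophage list overlaps, with -0.09 in Fxr-/- vehicle replicate 1.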

How the data were processed

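Per the labels' protocols, Trizol-extracted, column-cleaned liver RNA of pooled mice was converted to biotinylated cRNA for Illumina bead arrays. The authors deposited 1 intensity per probe and array on a linear scale, for 25697 probes. From the values these were background-subtracted (lowest -39.5) and quantile normalized (sorted columns differed by at most 0.5), with software not given in the sources used here. The deposited column of Fxr-/- vehicle replicate 2 has an unknown unit, could be named only as other values, and entered no fit.

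Probes were named through the platform annotation (23978 named). Signals became log2(max(signal, 0) + 16), with no further normalization. This understates changes of dim genes. Probes above their array's median (percentile 50) on at least 2 arrays were kept (14041 probes, 9766 genes), and each gene was read through its brightest kept probe. A single model with 1 mean per group was fitted to the 7 arrays using limma 3.58.1 (R 4.3.3; 3 residual and 4.56 prior degrees of freedom), two-sided, with Benjamini-Hochberg adjustment over all genes tested. The p-values measure the spread between pools, and the number of arrays limits the precision. A group wholly under 39.5 gives a bound ("at least"), with the dimmer group's signals under 39.5 set to that size.

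Same-numbered arrays deviated together from their group means (correlations of 0.233, 0.377 and 0.24 over 9766 genes in 3 pairs of groups), so the replicate numbers were also fitted as a block. Members, companion lists and the rule for named genes were chosen with earlier results of these data known. Per-array values are given for members above 39.5 on at least 1 array, tests for members past the threshold and for up to 3 of smallest p per class, and up to 3 genes per companion list. Alternatives were offsets of 1 and 100, added quantile normalization, centring on the median, no filter, the 75th percentile as filter, the mean of a gene's probes, an intensity trend, robust moderation, fits of only the groups compared, the block, and leaving out each array. The fit was tested on simulated data. Promoters came from RefSeq on GRCm38.p6. Figures were drawn with matplotlib 3.10.9.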

Additional observations from a re-analysis of the deposited data

Results flagged for a closer look

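In 6 members every GW4064 array moved one way from vehicle in Fxr-/- livers and the other way in Fxr+/+ livers. How many of all genes tested did so was not counted, so the 6 cannot be read as more than usual. The difference of the GW4064 effects, Fxr-/- minus Fxr+/+ on the log2 scale, was -2.64 for S100a8 (limma adjusted p = 0.581), -1.16 for Cd3g (0.705), -0.989 for Marco (0.698), -0.948 for Ccl5 (0.828) and -0.87 for Cd3d (0.757). For Mpo it was -0.427 (0.942), and its 3 Fxr-/- signals were all below 0. None of the 6 passed the threshold, and the Fxr-/- side rests on 1 vehicle array. No group held enough arrays for a test of outliers.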

How the results depend on the processing

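For Fxr-/- against Fxr+/+ under GW4064, 14 members and 1425 genes passed. With an offset of 1 these were 9 and 921, without the filter 1 (Cd3d, adjusted p = 0.0492) and 382, with the 75th percentile filter 9 of 13 members, and leaving out 1 array at a time 8 to 16 members and 500 to 1384 genes. Without the filter 16593 genes entered and the prior degrees of freedom were 0.439, against 4.56. Cd3d passed under every alternative run, and S100a8, S100a9, Ltf and Ccl5 under all but that without the filter. Cd3g and Mpo did likewise, though they were not tested with the 75th percentile filter. Under vehicle, 2 members and 667 genes passed. These were 1 member with an offset of 100, 0 without the filter, 6 with an intensity trend, 1 member and 400 genes with only the groups compared, 7 members with the replicate block, and 1 to 6 members and 402 to 639 genes leaving out 1 array. For GW4064 in Fxr-/-, 7 genes passed, against 42 with an offset of 1 (1 member, Elane), 379 without the filter, 2 with the mean of probes, 14 with the trend, 0 with only the groups compared, 3 with the replicate block and 1 to 3 leaving out 1 array. For GW4064 in Fxr+/+, 2 genes passed, against 0 with an offset of 1, 5 without the filter, 6 with the trend, 0 with only the groups compared, 5 with the replicate block and 0 to 1 leaving out 1 array. The difference of the effects gave 0 genes, against 5 with an offset of 1 and 324 without the filter. Under GW4064 the block added Clec4f and C1qc to the members called and lost none, and under vehicle it added S100a9, Ngp, Cd3e, Cd2 and Ccl5. In Fxr+/+ the GW4064 difference of C1qc, leaving out 1 array, ranged from -0.0218 (without vehicle replicate 2) to 0.94, and that of Cd74 from -0.18 (without GW4064 replicate 2) to 0.968. The causes were not tested.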
